A study of Arabidopsis thaliana with 24 samples.

Results

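The lines S4 and S8 are a pair of *tt19-8* suppressors that carry different alleles of *RDR6* (AT3G49500), and their seedling transcriptomes were compared across all genes. They were defined by their labels, as the 3 S4 libraries against the 3 S8 libraries, which makes 6 of the 24 RNA-seq libraries of the series. S4 carries a missense allele (RDR6 G664R) and S8 a nonsense allele (RDR6 W299stop), and both are EMS (ethyl methanesulfonate) mutants raised in the *tt19-8* background, a T-DNA knockout of *TT19* (AT5G17220) in the ecotype Col-0. The other lines given beside them are S2 and S1, which carry other nonsense alleles of *RDR6* in *tt19-8*, the parent *tt19-8* itself and wild-type Col-0, with 3 libraries each. Seedlings of every line were held for 4 days in anthocyanin inductive conditions (AIC), which means shaking in 3% sucrose under 24 h of light a day. Each allele is represented by 1 mutagenized line, so that the effect of the allele and that of any other change in the line cannot be told apart. The labels do not say whether the replicates were separate cultures. The p-values therefore measure only the spread between libraries, which was estimated jointly from all 24 and not from S4 and S8 alone.

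RDR6 is an RNA-dependent RNA polymerase that copies cleaved transcripts into double-stranded RNA, which SGS3 helps to keep intact and DCL4 cuts into secondary small interfering RNAs (siRNAs). In *Arabidopsis* this pathway makes trans-acting siRNAs (tasiRNAs) from the noncoding *TAS* transcripts, and siRNAs from *TAS4* direct the cleavage of the mRNAs of *PAP1*, *PAP2* and *MYB113*, which encode MYB activators of anthocyanin synthesis. Anthocyanins are made from phenylalanine through the phenylpropanoid and flavonoid pathways, and TT19 is a glutathione S-transferase that binds them on the way to the vacuole. The loss of *TT19* leaves seedlings poor in anthocyanin, and the suppressor lines were found because their pigment returned.

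The codons that separate the lines are printed because they define the comparison. Both stretches are coding sequence of *RDR6* from RefSeq assembly TAIR10.1, written 5′ to 3′ along the gene, which lies on the minus strand of chromosome 3. The reference codon is in capitals, with 10 codons on either side.
RDR6 codon 664 (S4, chr3:18351184-18351246): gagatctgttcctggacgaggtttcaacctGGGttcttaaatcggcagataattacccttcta
RDR6 codon 299 (S8, chr3:18352279-18352341): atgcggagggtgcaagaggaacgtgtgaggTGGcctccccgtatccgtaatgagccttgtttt
The codon GGG encodes glycine, and a single G-to-A change at its first base gives AGG, an arginine codon. The codon TGG encodes tryptophan, and a G-to-A change at either G gives a stop codon. The stop in S8 leaves 298 of 1196 residues (24.9%) ahead of it, whereas in S4 the full reading frame is kept.

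The S4 libraries held 67.6, 73.4 and 37.4 M counts and the S8 libraries 31.6, 26.8 and 33.6 M counts. A total of 22089 genes were tested. Replicates of S4 were closer to each other than replicates of S8, with a median coefficient of variation of 4.11% over 12978 genes in S4 and 7.58% over 12954 genes in S8. In a principal component analysis of the 6 libraries the first component (63.7% of the variance) separated S4 from S8. The second (14.5%) set S8 replicate 3, at -48.7, apart from S8 replicates 1 and 2, at 33.7 and 16.8, while the S4 libraries lay between -1.40 and 0.860. S8 replicate 3 was high for genes known to be induced by low oxygen, and the results that rest on it most are given with and without it. Small changes in the counts of other lists without it are not all given. *TT19* remained low in both lines, at 4.64, 5.07 and 6.10 CPM (read counts divided by the library total in M, which is first scaled for composition) in S4 and at 2.78, 5.47 and 4.13 CPM in S8, against a mean of 128 CPM in Col-0.

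S4 and S8 differed in 7854 of the 22089 genes (35.6%) at an adjusted p under 0.05 by the quasi-likelihood test of edgeR, whatever the fold change. Of these, 3726 (16.9% of the genes tested) were higher in S4 and 4128 (18.7%) were lower. These shares are the background for the counts of every gene list below. Most differences were small, and 1838 genes (8.32%) passed the test with a change of at least 2-fold, 929 of them higher in S4 and 909 lower. The CPM values of the lines did not overlap in 11832 genes (53.6%), and 4823 genes (21.8%) were called with all libraries and also whenever any 1 of the 6 was omitted. The median log2 fold change over all genes was 0.005. Without S8 replicate 3, 6675 genes were called.

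The nonsense lines also differed from each other. In the same fit 2366 genes (10.7%) were called between S2 and S8, with 4.26% of the genes tested higher in S2 and 6.45% lower. Between S1 and S8 6187 genes (28%) were called, with 13.3% higher in S1 and 14.7% lower. When only the 6 libraries of a pair were fitted, the count was 885 between S2 and S8, 7726 between S1 and S8 and 9256 between S4 and S8. These comparisons share the S8 libraries, so levels in S2 and S1 are given beside the S4 and S8 values of the genes described most fully, and a gene that differs between S4 and S8 is not taken to differ between missense and nonsense alleles in general.

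**Figure D1:**
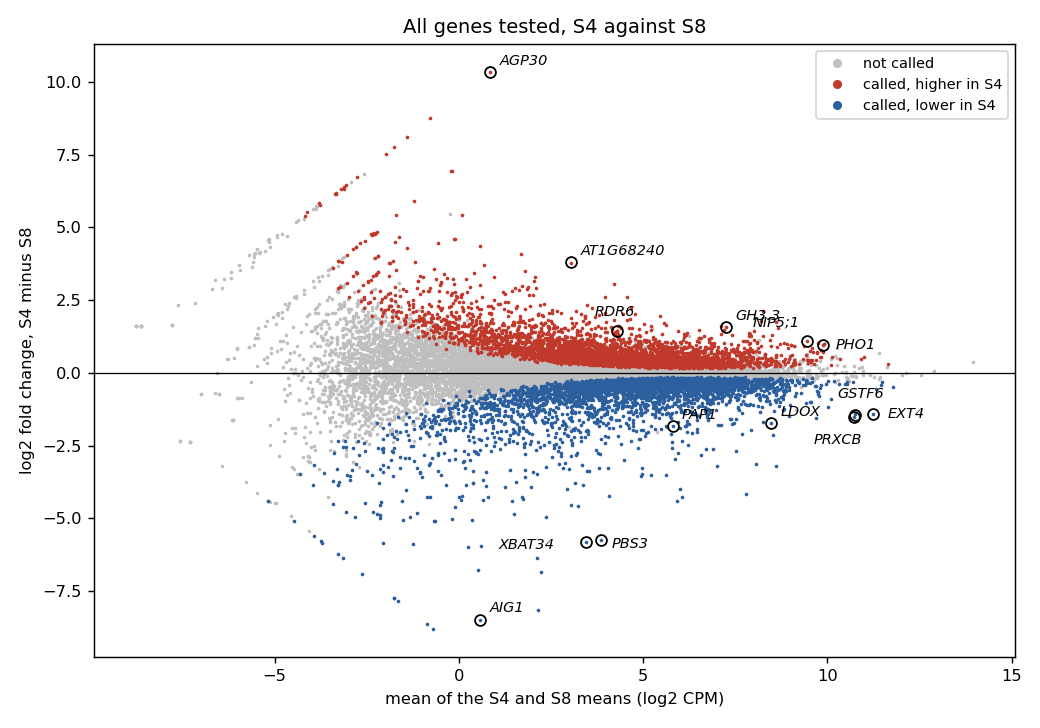
Log2 fold change (S4 minus S8) of the genes tested, plotted against the mean of the S4 and S8 mean expression in log2 CPM. Red points are the 3726 genes called higher in S4, blue points the 4128 called lower and grey points those not called; circled genes are named in the text, and the diagonal rows at the left and top are genes with few or no counts in a line, where the fitted fold is no bound.

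*RDR6* transcript was more abundant in S4. It had 28.5, 27.6 and 29.2 CPM in S4, against 10.2, 10.09 and 10.9 CPM in S8. The lines did not overlap, and the log2 fold change was 1.45 ± 0.12 (SE; adjusted p = 2.79e-08). The S4 libraries lay within the range of *tt19-8* (24.7 to 32.1 CPM). The other nonsense lines lay in between, with 18.9 to 19.7 CPM in S2 and 23.4 to 25.3 CPM in S1, and both were higher than S8, by 0.89 in S2 (adjusted p = 4.4e-05) and 1.22 in S1 (adjusted p = 3.0e-07) on the log2 scale.

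Among 19 genes of the siRNA machinery 5 were higher in S4 and 2 lower (16.9% and 18.7% of all genes), with a median log2 fold change of 0.10. *DCL2* (AT3G03300), a Dicer that can stand in for DCL4 in making siRNAs, had 64.9, 68.0 and 70.2 CPM in S4, against 38.7, 39.8 and 40.1 CPM in S8 (log2 fold change 0.78 ± 0.10, adjusted p = 3.56e-06). *DCL2* had 46.3 to 53.4 CPM in S2 and 42.7 to 48.6 CPM in S1. *DCL1* (AT1G01040), which makes microRNAs, was higher by 0.45 ± 0.10 on the log2 scale (adjusted p = 0.0011), and *DCL4* (AT5G20320) by 0.36 ± 0.10 on the log2 scale (adjusted p = 0.00875). Those that fell act before and after dicing. *AGO7* (AT1G69440), the Argonaute that starts tasiRNA production from *TAS3*, had 8.87, 9.42 and 8.39 CPM in S4, against 14.3, 14.0 and 11.6 CPM in S8, a log2 fold change of -0.57 ± 0.12 (adjusted p = 0.00108). *AGO7* had 10.4 to 14.1 CPM in S2 and 14.1 to 14.8 CPM in S1. *HEN1* (AT4G20910), which methylates small RNAs, was lower at -0.43 ± 0.10 on the log2 scale (adjusted p = 0.00317). *SGS3* (AT5G23570) did not pass the test, at 0.19 ± 0.17 on the log2 scale (adjusted p = 0.415).

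The *TAS* precursors did not move as a group. Of 6 tested, *TAS1A* (AT2G27400) was higher in S4, at 0.34 ± 0.13 on the log2 scale (adjusted p = 0.047), a call kept in 1 of the 6 fits without a library. *TAS4* (AT3G25795) was lower. It had 22.3, 24.7 and 25.2 CPM in S4, against 35.6, 48.1 and 40.1 CPM in S8, with no overlap and a log2 fold change of -0.78 ± 0.19 (adjusted p = 0.00328). Both lines stood above *tt19-8* (5.97 to 7.16 CPM), S2 reached 35.0 to 59.7 CPM, and S1 had 10.9 to 13.9 CPM. *TAS2* (AT2G39681) and *TAS3* (AT3G17185) had log2 fold changes of 0.26 and 0.40 and did not pass the test (adjusted p = 0.153 and 0.0646), although without S8 replicate 3 *TAS3* passed it (log2 fold change 0.59, adjusted p = 0.013).

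Of 21 tested targets of tasiRNAs and related siRNAs, 3 were higher and 4 lower in S4, shares near those of all genes (16.9% and 18.7%), with a median log2 fold change of 0.016, and without S8 replicate 3 there were 2 of each. *PAP1* (AT1G56650) showed the largest difference. It had 24.3, 24.6 and 24.7 CPM in S4, against 89.4, 87.5 and 86.3 CPM in S8, a log2 fold change of -1.84 ± 0.20 (adjusted p = 8.26e-07). The S4 libraries lay within the range of *tt19-8* (22.8 to 24.8 CPM) and below Col-0 (mean 45.0 CPM). S2 had 58.1 to 118 CPM and was not distinguished from S8 (log2 fold change 0.14, adjusted p = 0.73), whereas S1, a nonsense line, had 31.4 to 37.3 CPM and was lower than S8 (log2 fold change -1.35, adjusted p = 3.3e-05). The sister gene *PAP2* (AT1G66390) was lower in S4, at 20.6, 18.8 and 21.4 CPM against 28.9, 30.2 and 36.9 CPM in S8 (log2 fold change -0.66 ± 0.21, adjusted p = 0.0183), and did not pass the test without S8 replicate 3 (adjusted p = 0.081).

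The targets of *TAS3* tasiRNAs are the auxin response factors *ARF2*, *ARF3* and *ARF4*, which repress auxin-responsive genes. *ARF2* (AT5G62000) was higher in S4 by 0.27 ± 0.07 on the log2 scale (adjusted p = 0.00634) and *ARF3* (AT2G33860) by 0.34 ± 0.12 on the log2 scale (adjusted p = 0.0362), the call of *ARF3* being kept in 1 of the 6 fits without a library. *ARF4* (AT5G60450) had 85.2, 86.6 and 89.2 CPM in S4, against 90.9, 92.4 and 84.8 CPM in S8. It did not pass the test (log2 fold change -0.04 ± 0.07, adjusted p = 0.722), and both lines stood above *tt19-8* (47.6 to 49.0 CPM) and above S1 (52.8 to 58.5 CPM). *HTT1* (AT4G29770), a target of tasiRNAs that promotes heat tolerance, had 4.305, 4.27 and 4.17 CPM in S4, against 7.30, 8.55 and 8.30 CPM in S8 (log2 fold change -0.92 ± 0.29, adjusted p = 0.0167), while *tt19-8* had 0.413 to 0.599 CPM.

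**Figure D2:**
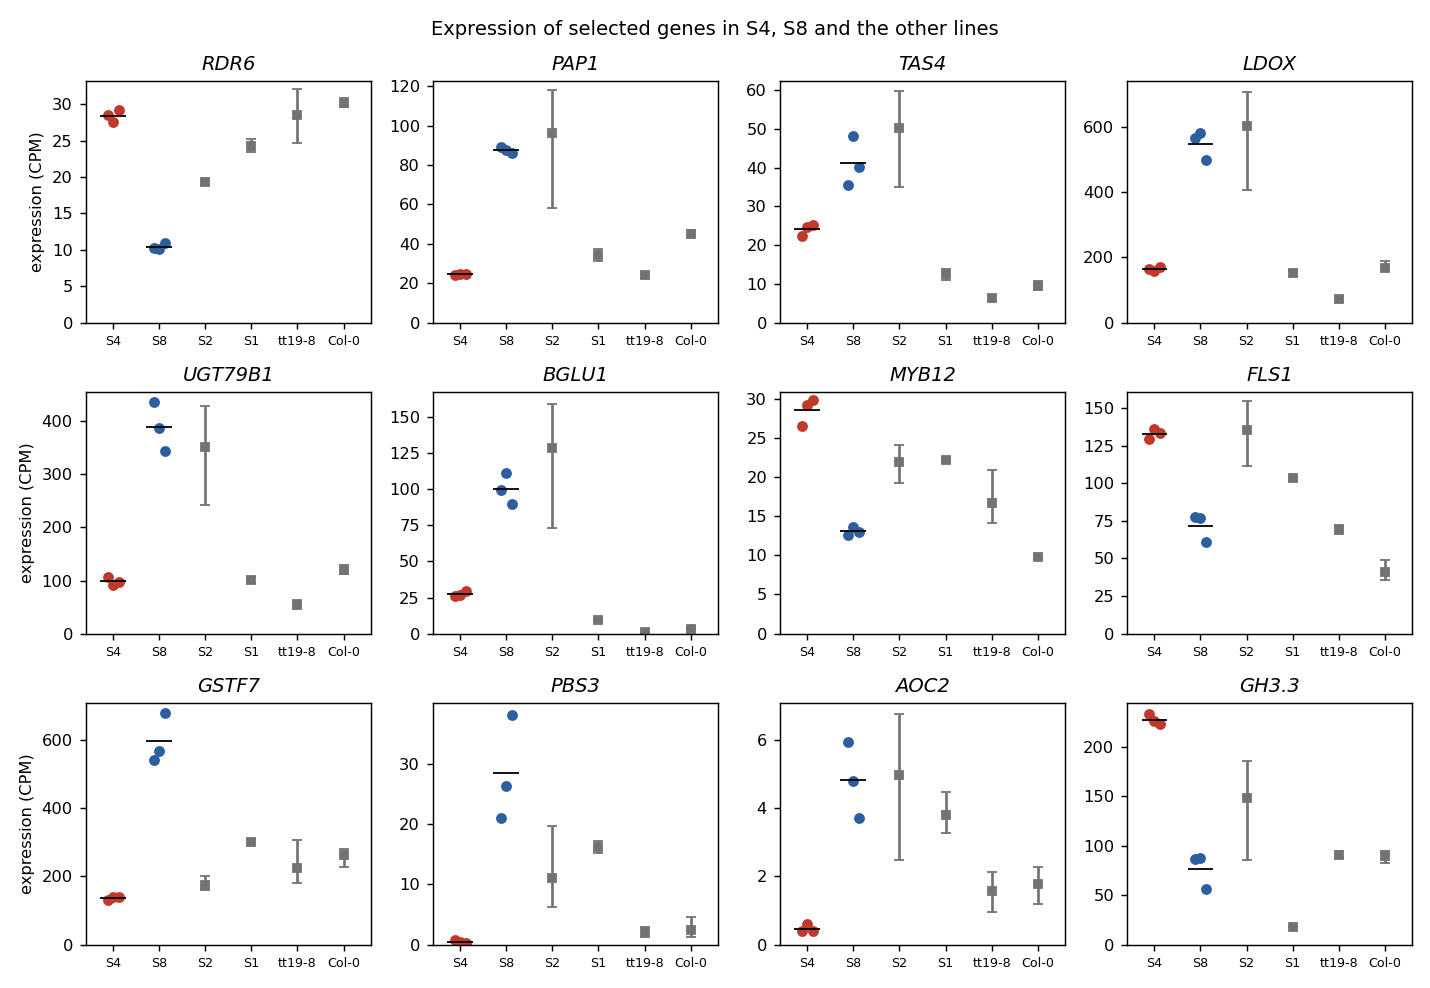
Expression in CPM of 12 genes named in the text. Red and blue points are the 3 libraries of S4 and of S8 with a bar at the mean, and grey squares are the means of S2, S1, *tt19-8* and Col-0 with the lowest and highest of 3 libraries; *LDOX* and *UGT79B1* in S4 lie near S1 and *PAP1* in S4 within the range of *tt19-8*, and in S8 the 3 genes lie within the range of S2 or just above it.

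Anthocyanin genes were lower in S4. Of 8 genes that decorate anthocyanins with sugars and acyl groups, 6 were lower and none was higher (background 18.7% lower), with a median log2 fold change of -1.58. *UGT79B1* (AT5G54060), which adds xylose to the anthocyanin core, had 107, 91.3 and 97.9 CPM in S4, against 435, 387 and 344 CPM in S8 (log2 fold change -1.98 ± 0.21, adjusted p = 4.62e-07). *UGT75C1* (AT4G14090), a 5-O-glucosyltransferase, was lower at -1.70 ± 0.18 on the log2 scale (adjusted p = 7.39e-07), the malonyltransferase *5MAT* (AT3G29590) at -1.46 ± 0.17 on the log2 scale (adjusted p = 1.72e-06) and *SAT* (AT2G23000), which adds sinapoyl groups, at -1.33 ± 0.17 on the log2 scale (adjusted p = 4.95e-06). The coumaroyltransferase *3AT1* (AT1G03940), whose reads could be shared with its close copy *3AT2*, had 84.9, 80.9 and 82.2 CPM in S4, against 330, 256 and 226 CPM in S8. The lines were separate for each of these genes, and the S4 levels were above those of *tt19-8*, which had 46.8 to 62.3 CPM of *UGT79B1*. The nonsense line S1 was also lower than S8 for each of them (adjusted p from 6.22e-07 to 4.55e-05). S1 had 95.45 to 106.9 CPM of *UGT79B1* (log2 fold change -1.94 against S8), near S4. S2 had 242 to 428 CPM of *UGT79B1* and was not distinguished from S8 for any of these genes (adjusted p from 0.522 to 0.991).

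Of 7 core flavonoid genes tested 4 were lower and none higher, with a median log2 fold change of -0.67. Chalcone synthase (*TT4*, AT5G13930), the entry step, had 2513, 2538 and 2481 CPM in S4, against 3270, 2880 and 2594 CPM in S8, and did not pass the test (log2 fold change -0.21 ± 0.14, adjusted p = 0.23). Chalcone isomerase (*TT5*, AT3G55120) was lower at -0.60 ± 0.14 on the log2 scale (adjusted p = 0.00278), and flavonoid 3′-hydroxylase (*TT7*, AT5G07990) at -0.83 ± 0.18 on the log2 scale (adjusted p = 0.00103). The late steps differed most. Dihydroflavonol reductase (*TT3*, AT5G42800) had 452, 415 and 416 CPM in S4, against 1247, 1325 and 1152 CPM in S8 (log2 fold change -1.54 ± 0.15, adjusted p = 1.82e-07). Anthocyanidin synthase (*LDOX*, AT4G22880) had 164, 159 and 170 CPM in S4, against 565, 580 and 498 CPM in S8 (log2 fold change -1.74 ± 0.21, adjusted p = 2.27e-06). For both genes S2 was not distinguished from S8 (adjusted p = 0.96 and 0.74). S1 was lower than S8, with log2 fold changes of -2.08 for *TT3* and -1.85 for *LDOX* (adjusted p = 5.7e-09 and 1.7e-06), so that S4 and S1 lay on the low side and S8 and S2 on the high side. *TT19* itself was not called (log2 fold change 0.35 ± 0.23, adjusted p = 0.237).

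Early phenylpropanoid genes, which feed the pathway with coumaroyl-CoA and malonyl-CoA, were lower in 8 of 11 cases and higher in none, with a median of -0.51. *PAL1* (AT2G37040) and *PAL2* (AT3G53260), which encode the ammonia-lyase that opens the pathway, were both lower. *PAL1* had 503, 493 and 488 CPM in S4, against 1089, 1028 and 863 CPM in S8. *PAL2* had 251, 255 and 256 CPM in S4, against 606, 577 and 511 CPM in S8. Their log2 fold changes were -1.01 ± 0.17 and -1.15 ± 0.14 (adjusted p = 9.92e-05 and 2.73e-06). *PAL1* had 674 to 1226 CPM in S2 and 578 to 588 CPM in S1. *PAL2* had 374 to 549 CPM in S2 and 312 to 319 CPM in S1, and S1 was lower than S8 for both genes (adjusted p = 0.00155 and 0.00013). Of 4 tested proanthocyanidin genes 3 were lower. *TT13* (AT1G17260), a proton pump of the vacuole, had 10.3, 10.4 and 10.4 CPM in S4, against 40.7, 43.0 and 33.0 CPM in S8 (log2 fold change -1.91 ± 0.34, adjusted p = 0.000193). *TT13* had 26.8 to 57.1 CPM in S2 and 3.88 to 4.63 CPM in S1. The flavonoid transporter *TT12* (AT3G59030) was lower at -2.77 ± 0.57 on the log2 scale (adjusted p = 0.000882) at 0.191 to 0.456 CPM in S4.

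Among 14 tested flavonoid regulators 2 were higher and 7 lower in S4 (16.9% and 18.7% of all genes), and 2 and 5 without S8 replicate 3. The lower ones included *TT8* (AT4G09820), the bHLH partner of PAP1, with 33.0, 35.5 and 35.3 CPM in S4 against 69.5, 59.3 and 54.0 CPM in S8 (log2 fold change -0.82 ± 0.14, adjusted p = 0.00018). *TT8* had 67.8 to 85.9 CPM in S2 and 18.7 to 21.6 CPM in S1. *MYBL2* (AT1G71030), a repressor of anthocyanin synthesis, was also lower, at 7.76, 9.14 and 9.10 CPM in S4 against 22.8, 22 and 23.56 CPM in S8 (log2 fold change -1.40 ± 0.20, adjusted p = 1.5e-05). *MYBL2* had 19.9 to 27.9 CPM in S2 and 9.71 to 10.8 CPM in S1. The higher ones were *MYB12* and *EGL3*. *MYB12* (AT2G47460), which activates flavonol synthesis, had 26.5, 29.1 and 29.8 CPM in S4, against 12.7, 13.6 and 12.9 CPM in S8 (log2 fold change 1.12 ± 0.13, adjusted p = 1.92e-06). The bHLH factor *EGL3* (AT1G63650) had 15.8, 16.9 and 17.2 CPM in S4, against 7.90, 10.06 and 8.68 CPM in S8 (log2 fold change 0.91 ± 0.12, adjusted p = 7.67e-06), with *tt19-8* at 16.2 to 19.2 CPM. *MYB12* was higher than S8 also in S2 (log2 fold change 0.75, adjusted p = 0.00071) and in S1 (log2 fold change 0.76, adjusted p = 0.00018).

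The flavonol list was mixed, with 3 of 14 tested genes higher and 7 lower (16.9% and 18.7% of all genes), and 2 and 7 without S8 replicate 3. Flavonol synthase (*FLS1*, AT5G08640), which draws dihydroflavonols away from anthocyanins, had 130, 136 and 133 CPM in S4, against 77.4, 76.6 and 61.2 CPM in S8 (log2 fold change 0.89 ± 0.13, adjusted p = 2.37e-05). S2 and S1 were also higher than S8 (log2 fold changes 0.91 and 0.53, adjusted p = 8.8e-05 and 0.0041). *UGT78D2* (AT5G17050), a 3-O-glucosyltransferase that serves both flavonols and anthocyanins, was lower in S4 at -1.08 ± 0.17 on the log2 scale (adjusted p = 5.65e-05). *BGLU1* (AT1G45191), listed by the study among flavonol genes, had 26.3, 26.5 and 29.5 CPM in S4, against 99.7, 112 and 90.06 CPM in S8 (log2 fold change -1.88 ± 0.33, adjusted p = 0.000169), and 0.455 to 1.18 CPM in *tt19-8*. Of 24 other flavonoid-related genes 12 were higher and 4 lower, against the same shares, with a median of 0.40. The lower ones included *CHIL* (AT5G05270), which helps chalcone synthase act on its proper product, with 115, 115 and 117 CPM in S4 against 257, 284 and 254 CPM in S8 (log2 fold change -1.19 ± 0.23, adjusted p = 0.000375).

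The phi class of glutathione S-transferases, to which TT19 belongs, was lower in 5 of 10 tested members and higher in none. Their summed expression ran from 2043 to 2169 CPM in S4 and from 4796 to 4992 CPM in S8. *GSTF6* (AT1G02930) had 896, 969 and 949 CPM in S4, against 2267, 2650 and 2675 CPM in S8 (log2 fold change -1.43 ± 0.18, adjusted p = 3.89e-06), and its close neighbour *GSTF7* (AT1G02920) was lower at -2.12 ± 0.19 on the log2 scale (adjusted p = 8.84e-08). The counting could split reads between these near copies. *GSTF5* (AT1G02940) was lower at -1.84 ± 0.30 on the log2 scale (adjusted p = 7.08e-05). S2 was not distinguished from S8 for *GSTF6* (adjusted p = 0.19) but was lower for *GSTF7* (log2 fold change -1.75, adjusted p = 4.9e-06). Nor was S2 distinguished from S8 for *GSTF5* (adjusted p = 0.707). The nonsense line S1 was lower than S8 for *GSTF6*, *GSTF7* and *GSTF5*. Its log2 fold changes against S8 were -1.701, -0.982 and -2.003 (adjusted p = 8.8e-07, 0.000467 and 4.02e-05).

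Genes of salicylate synthesis and signalling, a hormone pathway of defence against biotrophic pathogens, were lower in S4. Of 10 tested 9 were lower and none higher, with a median log2 fold change of -1.41, and the call of each of the 5 genes named next was kept without S8 replicate 3. *ICS1* (AT1G74710), the isochorismate synthase that makes most of the salicylate, had 24.9, 21.2 and 20.1 CPM in S4, against 65.5, 65.8 and 61.2 CPM in S8 (log2 fold change -1.54 ± 0.13, adjusted p = 3.36e-08). The S4 libraries also lay below every library of *tt19-8* (43.5 to 61.6 CPM), S2 (53.6 to 58.5 CPM) and S1 (42.8 to 47.2 CPM). *PBS3* (AT5G13320), which acts after *ICS1*, had 0.715, 0.470 and 0.327 CPM in S4, against 21.0, 26.2 and 38.1 CPM in S8 (log2 fold change -5.76 ± 0.53, adjusted p = 9.35e-08). It had 1.25 to 2.95 CPM in *tt19-8*, 6.34 to 19.6 CPM in S2 and 15.1 to 17.2 CPM in S1, so that all 3 nonsense lines stood above the parent and S4 below it.

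Transcription factor genes that drive *ICS1* were lower too. *SARD1* (AT1G73805) had 1.17, 1.06 and 0.681 CPM in S4, against 6.59, 7.82 and 13.3 CPM in S8 (log2 fold change -3.22 ± 0.38, adjusted p = 2.01e-06). *SARD1* had 2.42 to 4.83 CPM in S2 and 4.64 to 5.11 CPM in S1. *CBP60g* (AT5G26920) was lower at -2.18 ± 0.23 on the log2 scale (adjusted p = 5.34e-07) and *WRKY70* (AT3G56400), which acts downstream of salicylate, at -2.88 ± 0.32 on the log2 scale (adjusted p = 1.05e-06). The marker genes *PR2* and *PR5* had at most 1 count in any of the 6 libraries, and *PR1* had 6, 1 and 1 counts in S4 and 0, 2 and 23 counts in S8, so that these 3 genes were not tested.

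Of 20 tested jasmonate genes, which belong to the hormone pathway of the wound response, 12 were lower in S4 and none higher, with a median of -0.80. *AOC2* (AT3G25770), an allene oxide cyclase of jasmonate synthesis, had 0.396, 0.594 and 0.408 CPM in S4, against 5.92, 4.78 and 3.72 CPM in S8 (log2 fold change -3.34 ± 0.37, adjusted p = 1.03e-06). Neither other nonsense line was distinguished from S8, with 2.49 to 6.74 CPM in S2 and 3.27 to 4.46 CPM in S1 of *AOC2*. The repressor gene *JAZ5* (AT1G17380), itself induced by jasmonate, was lower at -1.96 ± 0.24 on the log2 scale (adjusted p = 3.75e-06). For *JAZ5* S2 was also lower than S8 (log2 fold change -1.22, adjusted p = 0.0017), while S1 was not distinguished from S8 (adjusted p = 0.235). *LOX2* (AT3G45140), the lipoxygenase at the start of the pathway, had 1 count in all S4 libraries together and 43 counts in S8, a ratio of 85.9 with a 95% exact interval of 14.6 to 3470 that covers counting error only. For *LOX2* S2 was lower than S8 too (adjusted p = 0.017), while S1 was not distinguished from S8 (adjusted p = 0.585). *VSP2* (AT5G24770), a storage protein used as a jasmonate marker, was lower than in S8 (log2 fold change -1.99 ± 0.43, adjusted p = 0.00122), and the S4 libraries (0.844 to 0.898 CPM) also lay below *tt19-8* (3.87 to 10.8 CPM). *VSP2* had 0.424 to 2.275 CPM in S2, not distinguished from S8 (adjusted p = 0.063), and 5.72 to 6.815 CPM in S1.

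The 10 largest falls were those of *AIG1*, AT5G24200, *CRK39*, *TAT3*, AT1G26390, *BGLU27*, *XBAT34*, *PBS3*, AT1G55525 and *PRX52*, taken from called genes that averaged 1 CPM or more across both lines, whose values did not overlap and whose call was kept without each library. *AIG1* (AT1G33960), a gene induced by bacterial avirulence genes, had 1 count in the S4 libraries together and 267 counts in S8, a ratio of 533 (95% exact interval 94.9 to 21140). The receptor kinase gene *CRK39* (AT4G04540) had 4 counts in S4 and 247 in S8, a ratio of 123 (47.6 to 456). S2 was also lower than S8 for *AIG1* and *CRK39* (log2 fold changes -3.15 and -3.36, adjusted p = 0.00203 and 0.00968). S1 was not distinguished from S8 for either gene (adjusted p = 0.0954 and 0.595). *XBAT34* (AT4G14365) had 0.380, 0.332 and 0.463 CPM in S4, against 17.44, 20.1 and 26.6 CPM in S8 (log2 fold change -5.80 ± 0.40, adjusted p = 2.51e-09). S4 lay also below the nonsense lines S2 and S1, with 4.32 to 10.12 CPM in S2 and 12.4 to 13.2 CPM in S1 of *XBAT34*. The tyrosine aminotransferase gene *TAT3* (AT2G24850), a jasmonate-induced gene, had 0.183, 0.0691 and 0.0272 CPM in S4, against 8.70, 9.67 and 7.54 CPM in S8 (log2 fold change -6.37 ± 0.51, adjusted p = 2.12e-08), while S2 had 0.164 to 0.548 CPM and S1 9.38 to 9.86 CPM. The nonsense lines therefore lay on both sides for *TAT3*. Among genes that met the same conditions, the 5 largest deficits in S4 by the amount of transcript were those of *EXT4*, *PRXCB*, *GSTF6*, *ATMS1* and *TT3*. The peroxidase gene *PRXCB* (AT3G49120) had 926, 867 and 833 CPM in S4, against 2577, 2449 and 2449 CPM in S8 (log2 fold change -1.51 ± 0.09, adjusted p = 5.05e-10), and the cell wall extensin gene *EXT4* (AT1G76930) had 1579, 1225 and 1134 CPM in S4, against 4275, 2931 and 3358 CPM in S8 (log2 fold change -1.42 ± 0.28, adjusted p = 0.000579). S2 and S1 were also lower than S8 for both genes. *PRXCB* had 1260 to 1464 CPM in S2 and 904 to 944 CPM in S1 (adjusted p = 1.9e-06 and 1.1e-09), and *EXT4* had 1166 to 1368 CPM in S2 and 794 to 980 CPM in S1 (adjusted p = 0.0017 and 2.8e-05), so that S8 was the high line among S4, S8, S2 and S1. Wild-type Col-0 had 2069 to 2151 CPM of *PRXCB*, and its 2339 to 3641 CPM of *EXT4* overlapped S8.

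**Figure D3:**
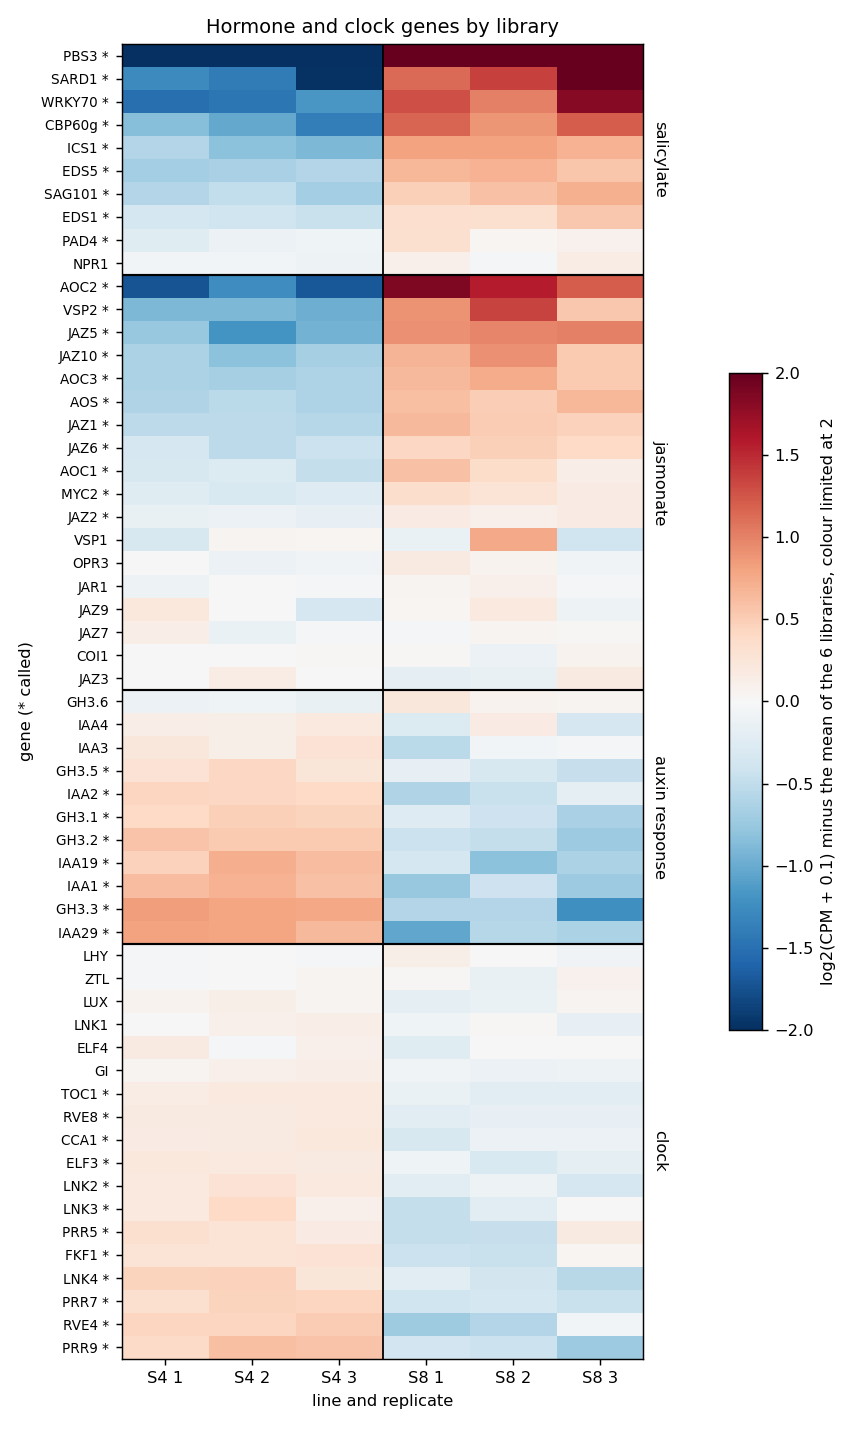
Members of the salicylate, jasmonate, auxin response and clock lists whose S4 and S8 means sum to over 1 CPM, in each of the 6 libraries. Colour is log2(CPM + 0.1) minus the mean of the 6 libraries, red above and blue below it, and an asterisk marks a called gene; the 9 called salicylate genes are blue in S4, and the 8 called auxin genes and 12 called clock genes are red in S4.

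Auxin-responsive genes were higher in S4. Of 12 tested early auxin response genes 8 were higher and none lower (background 16.9% higher), with a median log2 fold change of 0.85. *GH3.3* (AT2G23170), which encodes an enzyme that conjugates auxin to amino acids, had 233, 226 and 222 CPM in S4, against 86.7, 87.3 and 56.0 CPM in S8 (log2 fold change 1.57 ± 0.24, adjusted p = 4.73e-05). S4 lay also above the nonsense lines S2 and S1, with 85.5 to 186 CPM in S2 and 17.7 to 18.5 CPM in S1 of *GH3.3*. *GH3.2* (AT4G37390) was higher by 1.08 ± 0.20 on the log2 scale (adjusted p = 0.000311). The repressor genes *IAA1* (AT4G14560) and *IAA19* (AT3G15540), which auxin induces within minutes, were higher by 1.27 ± 0.16 and 1.23 ± 0.22 on the log2 scale (adjusted p = 3.87e-06 and 0.000178). For *IAA1* the S4 libraries (17.2 to 18.6 CPM) lay above every library of S2 (7.10 to 11.04 CPM), S1 (3.65 to 4.88 CPM) and *tt19-8* (3.44 to 4.42 CPM). The auxin receptor gene *TIR1* (AT3G62980), a target of microRNA and secondary siRNAs, moved the other way, at -0.21 ± 0.07 on the log2 scale (adjusted p = 0.0244), a call kept in 2 of the 6 fits without a library.

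Of 18 tested genes of the circadian clock 12 were higher in S4 and none lower, with a median of 0.38. The pseudo-response regulator genes *PRR9* (AT2G46790) and *PRR7* (AT5G02810), which repress the morning genes, were among them. *PRR9* had 79.9, 93.1 and 90.9 CPM in S4, against 46.9, 45.4 and 37.1 CPM in S8. *PRR7* had 78.7, 86.0 and 85.2 CPM in S4, against 48.1, 49.7 and 46.6 CPM in S8. Their log2 fold changes were 1.03 ± 0.13 and 0.79 ± 0.11 (adjusted p = 3.75e-06 and 8.25e-06). *PRR9* had 59.1 to 72.3 CPM in S2 and 35.4 to 37.8 CPM in S1. *RVE4* (AT5G02840), a MYB-like activator of evening genes, was higher by 0.88 ± 0.21 on the log2 scale (adjusted p = 0.00241). The time of day at which each line was harvested is not stated, and its part in the clock genes was not tested.

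Iron genes were mostly lower or not called. Of 26 tested 2 were higher and 10 lower, with a median of -0.22. Among the genes induced by iron shortage, *NAS4* (AT1G56430), for the metal chelator nicotianamine, had 6.65, 7.10 and 6.32 CPM in S4, against 23.9, 21.6 and 18.5 CPM in S8 (log2 fold change -1.67 ± 0.15, adjusted p = 1.05e-07), and 22.7 to 27.9 CPM in *tt19-8*. S4 lay also below the nonsense lines S2 and S1, with 14.8 to 25.5 CPM in S2 and 52.3 to 56.1 CPM in S1. *bHLH100* (AT2G41240), a regulator of the response, had 0.0456, 0.207 and 0.0545 CPM in S4, against 0.703, 1.85 and 1.42 CPM in S8 (log2 fold change -3.50 ± 0.59, adjusted p = 0.000108). Both lines were far below S1 for this gene (63.4 to 68.5 CPM). *FIT* (AT2G28160), its partner, went the other way at low levels, with 1.28, 1.71 and 2.31 CPM in S4 against 0.803, 0.270 and 0.126 CPM in S8 (log2 fold change 2.12 ± 0.43, adjusted p = 0.000668). The iron transporter gene *IRT1* (AT4G19690) was not called, at means of 0.205 CPM in S4 and 0.204 CPM in S8. The ferric reductase gene *FRO2* (AT1G01580), at means of 27.3 and 24.5 CPM, was not called either (log2 fold change 0.15 ± 0.11, adjusted p = 0.281). The iron storage gene *FER1* (AT5G01600), higher by 0.62 ± 0.12 on the log2 scale (adjusted p = 0.000597), shares 63.6% of its length with another annotated gene, so its counts are uncertain.

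Of 19 tested sugar genes 1 was higher and 8 lower, with a median of -0.28, and 2 were higher and 7 lower without S8 replicate 3. The beta-amylase gene *BAM5* (AT4G15210) had 52.8, 54.4 and 51.9 CPM in S4, against 179, 175 and 137 CPM in S8 (log2 fold change -1.62 ± 0.18, adjusted p = 1.23e-06), and the monosaccharide transporter gene *STP4* (AT3G19930) had 46.0, 45.3 and 47.6 CPM in S4, against 100.4, 105 and 99.2 CPM in S8 (log2 fold change -1.13 ± 0.10, adjusted p = 3.97e-08). For *BAM5* the other nonsense lines were also lower than S8, with 55.4 to 84.2 CPM in S2 and 56.8 to 58.2 CPM in S1 (adjusted p = 0.00026 and 4.1e-06). The same held for *STP4*, with log2 fold changes of -0.52 in S2 and -0.44 in S1 (adjusted p = 0.00103 and 0.00146). The sucrose carrier gene *SUC1* (AT1G71880) was lower at -0.92 ± 0.14 on the log2 scale (adjusted p = 2.67e-05). Phosphate starvation genes were higher in 4 and lower in 2 of 19 cases, with a median of 0.038, against shares of 16.9% higher and 18.7% lower over all genes. *PHO1* (AT3G23430), the exporter that loads phosphate into the xylem, had 1211, 1257 and 1281 CPM in S4, against 687, 645 and 596 CPM in S8 (log2 fold change 0.96 ± 0.26, adjusted p = 0.00639), and the ribonuclease gene *RNS1* (AT2G02990) was lower at -2.04 ± 0.19 on the log2 scale (adjusted p = 1.34e-07). S2 and S1 were also lower than S8 for *RNS1* (log2 fold changes -1.195 and -1.51, adjusted p = 0.000234 and 5.54e-06). Nitrate genes were lower in 4 of 7 cases, with nitrite reductase (*NIR1*, AT2G15620) at -0.47 ± 0.10 on the log2 scale (adjusted p = 0.00121). Against the same shares, brassinosteroid genes were lower in 5 and higher in 1 of 13, and *SPL* genes were higher in 2 of 9 (1 without S8 replicate 3), led by *SPL6* (AT1G69170) at 0.82 ± 0.14 on the log2 scale (adjusted p = 0.000127).

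**Figure D4:**
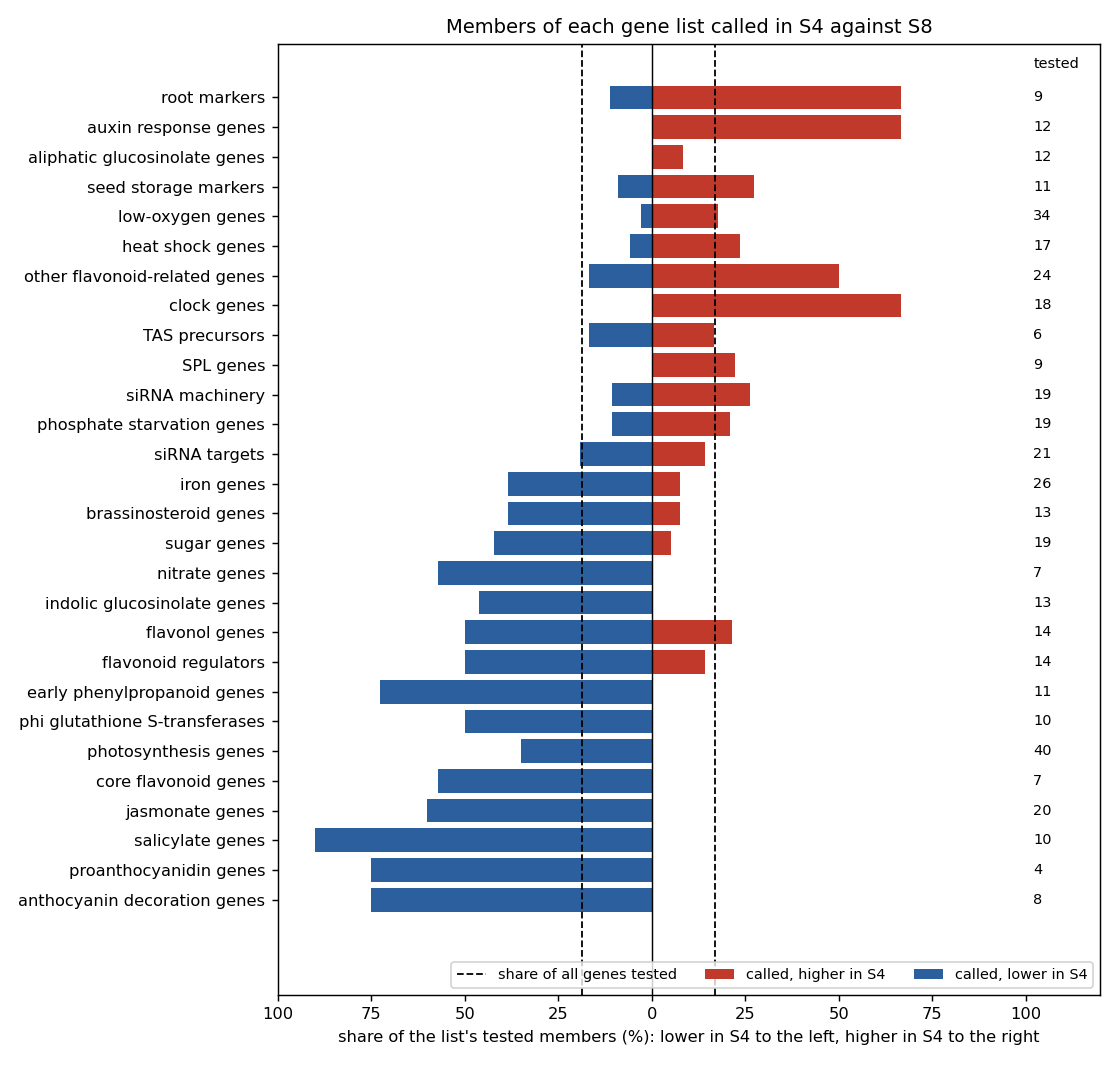
Share of the tested members of each gene list (%) called higher in S4 (red, to the right) or lower in S4 (blue, to the left), ordered by median log2 fold change, with the number tested at the right. Dashed lines mark the shares over all genes tested, 16.9% higher and 18.7% lower; salicylate, anthocyanin decoration, proanthocyanidin and early phenylpropanoid lists have the highest shares of lower genes.

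Glucosinolates are sulfur-rich defence compounds of this plant family. Of 13 tested genes of the indolic branch 6 were lower in S4 and none higher, with *CYP81F2* (AT5G57220) at 6.33, 5.26 and 6.43 CPM in S4 against 12.4, 14.5 and 12.6 CPM in S8 (log2 fold change -1.14 ± 0.26, adjusted p = 0.00184). The regulator gene *MYB51* (AT1G18570) was lower (log2 fold change -0.60 ± 0.17, adjusted p = 0.0094), but the call rested on S8 replicate 3, which had 87.0 CPM against 45.0 and 48.4 CPM in S8 replicates 1 and 2, and without it the adjusted p was 0.16. The nonsense line S2 had 2.417 to 4.298 CPM of *CYP81F2*, below every S4 library. It was lower than S8 for this gene (log2 fold change -1.928, adjusted p = 7.24e-05). S1 had 10.17 to 10.68 CPM of *CYP81F2* and was not distinguished from S8 (adjusted p = 0.364). Of 12 tested aliphatic genes 1 was higher in S4 (16.9% of all genes), and none was called without S8 replicate 3. Of 17 tested heat shock genes 4 were higher and 1 lower, against 16.9% and 18.7% of all genes. A wider family, the 26 tested genes grouped under the product name heat shock protein, held 1 higher and 12 lower members and was chosen after its values were seen.

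Low-oxygen genes divided the S8 libraries. Of 34 tested 6 were higher in S4 and 1 lower, shares near or under those of all genes tested (16.9% and 18.7%). Their summed expression was 12400, 11960 and 12050 CPM in S4, against 5758, 5925 and 13420 CPM in S8, so that S8 replicate 3 stood with S4. Without that library 7 were higher and none lower, and the median log2 fold change was 0.88 in place of 0.48. Alcohol dehydrogenase (*ADH1*, AT1G77120), the fermentation enzyme that regenerates NAD, had 3523, 3173 and 3328 CPM in S4, against 1406, 1445 and 3467 CPM in S8. It did not pass the test with (log2 fold change 0.67 ± 0.48, adjusted p = 0.296) or without S8 replicate 3 (log2 fold change 1.23, adjusted p = 0.08). Sucrose synthase (*SUS4*, AT3G43190) had 129, 140 and 130 CPM in S4, against 56.5, 58.7 and 407 CPM in S8, and its fold change turned from -0.39 ± 0.93 (adjusted p = 0.778) to 1.21 (adjusted p = 0.38) without S8 replicate 3. AT3G10020, a stress gene of the same list, was called in every fit without a library (log2 fold change 0.87 ± 0.10, adjusted p = 2.1e-06). Replicates of *tt19-8* also varied, with 1003 to 4706 CPM of *ADH1* and 26.4 to 540 CPM of *SUS4*. Their spread entered the error of these tests. The part of oxygen supply in the shaken cultures in other results was not tested.

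**Figure D5:**
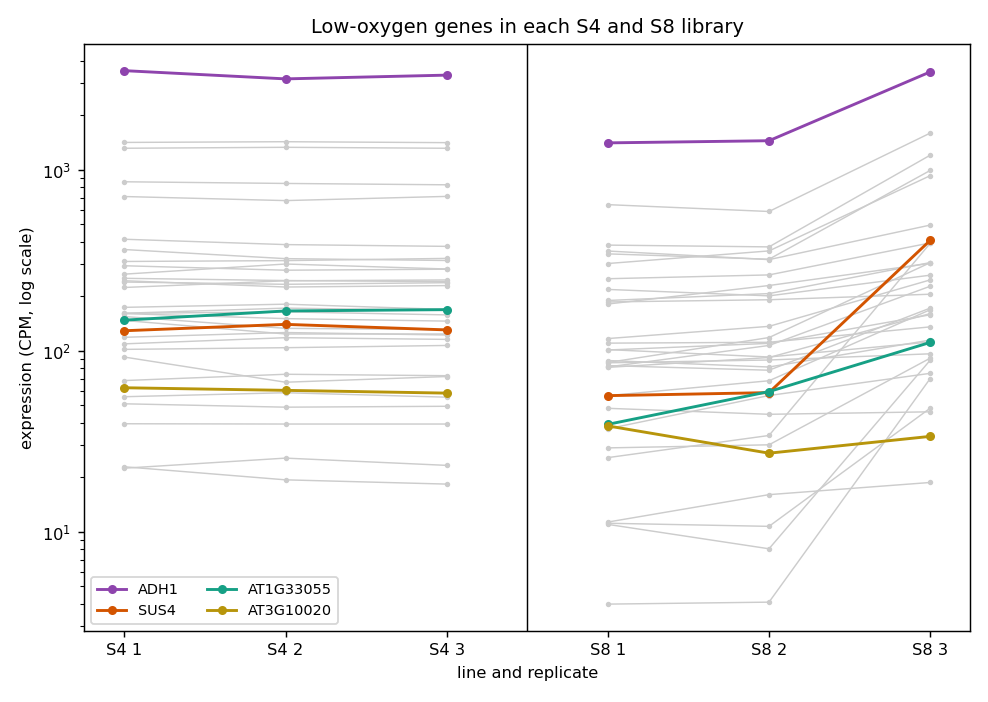
Expression (CPM, log scale) of the low-oxygen genes in each S4 and S8 library. Each line is a gene, broken between the lines of plants; *ADH1*, *SUS4*, AT1G33055 and AT3G10020 are coloured and the others grey, and S8 replicate 3 lies above S8 replicates 1 and 2 for most genes, with *SUS4* at 407 CPM.

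Tissue markers were checked, since seedlings were sampled and a change in the share of a tissue and a change in the RNA of its cells cannot be told apart. Photosynthesis genes were at low levels in all 6 libraries, with a summed expression over 40 tested genes of 267 to 292 CPM in S4 and 332 to 525 CPM in S8. Of them 14 were lower in S4 and none higher (18.7% and 16.9% of all genes), with a median of -0.65. Without S8 replicate 3, 8 were lower, with a median of -0.16. The Rubisco small subunit gene *RBCS1A* (AT1G67090) had 98.1, 89.5 and 87.5 CPM in S4, against 132, 122 and 146 CPM in S8 (log2 fold change -0.54 ± 0.10, adjusted p = 0.000214). Members of the Rubisco and light-harvesting families are near copies, and how reads that fit several of them were counted is not stated. Of 9 root markers 6 were higher and 1 lower, against the same shares, and 4 and 1 without S8 replicate 3. The most abundant, *PYK10*, was the one that fell (log2 fold change -1.19, adjusted p = 0.00019), and the summed expression of the list was lower in S4 (834 to 895 CPM) than in S8 (1372 to 1774 CPM). The auxin efflux gene *PIN2* had 140, 134 and 136 CPM in S4, against 137, 133 and 130 CPM in S8. Transcripts of seed storage proteins summed to 3725 to 4037 CPM in S4 and 2298 to 2736 CPM in S8. Of 11 tested 3 were higher and 1 lower (16.9% and 18.7% of all genes), and 2 higher and none lower without S8 replicate 3. Among the higher ones, *SESA4* kept its call in 0 of the 6 fits without a library, *SESA2* in 1 and *EM1* in all 6. The part of these tissues in the other lists was not tested.

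The 10 largest rises under the same conditions as the falls were those of *AGP30*, AT2G07751, *CYP82C4*, AT3G46490, AT1G68240, AT3G23510, AT2G37700, AT3G30213.1, *UMAMIT4* and AT3G45700. AT2G07751 had 44, 335 and 34 counts in S4 (0.669, 4.63 and 0.926 CPM), so that its S4 mean rested mostly on replicate 2. *AGP30* (AT2G33790), a root arabinogalactan protein gene, had 4.18, 2.74 and 3.95 CPM in S4 and no count in any S8 library, which makes it at least 35.0-fold higher in S4 when S8 is set to the floor of 3 counts per library (a mean of 0.1035 CPM). Another root gene, *TIP2-3* (AT5G47450), which averaged below 1 CPM across both lines, had 310 counts in S4 and 1 in S8, a ratio of 155 (95% exact interval 27.7 to 6150). *AGP30* had 0.336 to 5.61 CPM in S2 and 0.921 to 1.53 CPM in S1, 3.16 to 10.2 CPM in *tt19-8* and a mean of 0.155 CPM in Col-0. *TIP2-3* had 0.778 to 5.45 CPM in S2 and 5.10 to 6.01 CPM in S1. Both lines were higher than S8 for *AGP30* (adjusted p = 0.0016 and 0.0097) and for *TIP2-3* (adjusted p = 0.0028 and 0.00036), so that S8 was the low line among S4, S8, S2 and S1 for these genes. AT1G68240, a bHLH factor gene, had 16.3, 16.04 and 14.2 CPM in S4, against 0.803, 0.809 and 1.70 CPM in S8 (log2 fold change 3.79 ± 0.39, adjusted p = 3.76e-07), and the S4 libraries lay above every library of *tt19-8* (1.54 to 2.62 CPM), S2 (1.27 to 2.78 CPM) and S1 (5.08 to 6.07 CPM). *UMAMIT4* (AT3G18200), of a family of amino acid transporters, was higher by 3.31 ± 0.61 on the log2 scale (adjusted p = 0.000288) and within the range of *tt19-8*.

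Among genes that met the same conditions, which leave out *ADH1*, the 5 largest excesses in S4 by the amount of transcript were those of *FAD2*, *PHO1*, AT1G79245, *NIP5;1* and *ATNTT2*. *FAD2* (AT3G12120), the oleate desaturase, had 2451, 2394 and 2451 CPM in S4, against 1658, 1397 and 1921 CPM in S8 (log2 fold change 0.55 ± 0.14, adjusted p = 0.00495). The boron channel gene *NIP5;1* (AT4G10380) had 933, 971 and 966 CPM in S4, against 432, 493 and 412 CPM in S8 (log2 fold change 1.102 ± 0.10, adjusted p = 6.73e-08). S2 and S1 were likewise higher than S8 for *NIP5;1* (1.35 and 1.00, adjusted p = 5.9e-08 and 3.0e-07), and *tt19-8* had 1214 to 1401 CPM, so that S8 was the low line here.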

How the data were processed

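Total RNA of seedlings was sequenced in 24 libraries, 3 per genotype. Read quality was assessed by the authors with FastQC 0.11.5, alignment to TAIR10 was done with HISAT2 and counting per gene with featureCounts, and the deposited values were raw counts per gene and library without normalization. Strand, multiple mapping and overlapping genes were handled in ways not given in the sources used here. The files held 33331 identifiers, of which 28932 matched RefSeq TAIR10.1 locus tags, used for names, gene overlaps and the *RDR6* sequence.

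Counts were analysed with edgeR 4.0.16 in R 4.3.3. Genes were filtered with filterByExpr by genotype (22089 kept) and scaled by TMM, and every genotype received its own mean in 1 quasi-likelihood fit over the 24 libraries (common biological coefficient of variation 14.2%). The contrast S4 minus S8 was tested two-sided with Benjamini-Hochberg adjustment, and a call required an adjusted p below 0.05. The SE is the log2 fold change divided by the square root of F. The floor was 3 counts per library, and floors and ratio intervals cover counting error only. The test was checked on simulated counts. Groups came from the labels.

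The 28 gene lists (438 genes, 413 tested) and the genes named were chosen with earlier results of these data known, with membership of the 7 flavonoid lists taken from the study. Named genes were the key members, up to 4 further called members per list with the largest change, the 10 largest rises and falls and the 5 largest excesses and deficits in CPM, among called genes that averaged 1 CPM or more across both lines, had no overlap and kept their call without each library. *TIP2-3*, *PIN2* and *PYK10* were tissue markers. Alternatives were RLE size factors, library totals, DESeq2 1.42.0, no filter, only the 6 libraries, a replicate block, thinned S4 counts, an adjusted p of 0.01 and leaving out each library.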

Additional observations from a re-analysis of the deposited data

How the results depend on the processing

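The count of 7854 genes called between S4 and S8 was 7856 with RLE size factors, 7811 with library totals alone (55.1% of the calls higher in S4, against 47.4%), 8295 with DESeq2, 7410 without the filter, 9256 in the 6 libraries alone and 7710 with S4 thinned to the depth of S8. An adjusted p of 0.01 left 4975 genes, 2199 of them higher in S4, 1192 between S2 and S8 and 3739 between S1 and S8. Leaving out 1 library gave 6135 to 6675 genes. With the 6 libraries of a pair fitted alone, the count was 885 between S2 and S8 and 7726 between S1 and S8. Replicate numbers did not pair the libraries (correlation of deviations between -0.0338 and 0.028), and the replicate block gave 7531 calls. The cause of these differences was not tested. Of 154 called genes among the 177 named, between 14 and 21 lost their call without a given library, and at most 6 with all libraries and the same threshold. Among genes that were not called, direction turned for *ARF4* with library totals alone (0.001), for *SUS4* under the replicate block (0.322) and for *IRT1* under the replicate block (-0.03). Without 1 library the log2 fold change ran from -0.039 to 0.072 for *RPF3*, from -0.808 to 1.208 for *SUS4*, from -0.379 to 0.309 for *IRT1*, from -0.001 to 0.54 for *HSFA2* and from -0.02 to 0.179 for *HSP101*. The S8 libraries held fewer counts than S4 replicates 1 and 2, which limits calls among genes near the floor.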

Other observations

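Genes were also grouped by the words of their RefSeq product names into 128 families of at least 20 tested genes, and those given here were chosen after their values were seen, so the counts are a description. Ribosomal protein genes were more often lower than higher in S4, with 51 of 162 proteins named L lower and 3 higher (median log2 fold change -0.16), and 41 of 96 named S lower and 2 higher (-0.21). Berberine bridge enzyme-like genes, which encode FAD-linked oxidases, were lower in 13 of 21 cases and higher in 1 (-1.15). Calcium-binding EF-hand genes were lower in 18 of 37 cases and higher in 3 (-0.48). In the other direction, 62 of 221 genes annotated as other RNA, which are noncoding, were higher in S4 and 8 lower (0.45), and 9 of 21 genes of the RCC1 family were higher and none lower (0.34). Over all genes tested 16.9% were higher and 18.7% lower.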
